A study of Mus musculus with 9 samples.

Results

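The 10 genes described here carry ions and water across the airway epithelium, and were taken by symbol from a table of 21930 Ensembl gene identifiers measured in mouse nasal mucosa. They are the chloride and anion channels Cftr and Ano1, the anion exchangers or channels Slc26a4 and Slc26a9, the basolateral sodium, potassium and chloride cotransporter Slc12a2, the epithelial sodium channel (ENaC) subunits Scnn1a, Scnn1b and Scnn1g, and the water channels Aqp3 and Aqp5. All 10 symbols were found, each with 1 identifier. Nasal mucosal RNA was sequenced from wild-type mice in 3 groups of 3 libraries, in a mouse model of eosinophilic chronic rhinosinusitis examined with and without exosome therapy. The control group carries the treatment label none. The papain group (eCRS in the titles) was given papain, a cysteine protease used as an inhaled allergen, as 20 µg in 20 µl intranasally on days 0 to 2 and 7 to 11. The third group (eCRS_Exo) had the same papain and also MSC-Exos, exosomes derived from mesenchymal stem cells, intranasally on days 7 to 11. The protocol names PBS as the alternative to exosomes without saying which mice had it, and mice were killed on day 12. The sources used here do not give age or sex, or whether each library comes from its own mouse. The p-values therefore reflect only library-to-library spread, which may be technical.

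Airway surface liquid is set by the balance of chloride secretion and sodium absorption. In secretion, Slc12a2 (NKCC1) loads the cell with chloride from the basolateral side, and apical channels such as Cftr, gated through cAMP, and Ano1 (TMEM16A), gated by calcium, let it out. In absorption, sodium enters through ENaC, which is built from alpha (Scnn1a), beta (Scnn1b) and gamma (Scnn1g) subunits, and is pumped out basolaterally. Water follows through aquaporins, with Aqp3 in basolateral membranes of basal cells and Aqp5 in apical membranes of gland and surface cells. In the nose, much of the secretion comes from submucosal and other glands.

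The unit of the table is FPKM, fragments per kilobase of transcript scaled to library size, which is a level per length, so that levels of different genes can be set side by side. The divisor is the whole library, and the 15 most abundant genes took 77.0% to 78.6% of the summed FPKM in the control libraries, 64.7% to 77.8% in the papain libraries and 38.2% to 64.3% in the exosome libraries. Every value was therefore also divided by its library's median ratio to the geometric mean of all 9 libraries, over the 16486 genes above 0 in all of them, and is then called scaled. The factors were 0.763 to 0.765 in control, 0.71 to 1.07 in papain and 1.18 to 1.75 in exosome libraries. Between groups, the median log2 change of all tested genes was 0.19 between papain and control as deposited, 0.56 between exosomes and papain, and 0.76 between exosomes and control, and it was within 0.01 of 0 after scaling. Papain library 2 had the highest share of abundant genes in its group and the smallest factor, and exosome library 3 stood nearest to the papain libraries in both. Rough depth, guessed from the spacing of low values, came out at 15.1 to 24.6 M (mega) fragments per library. The search allowed only spacings of 0.03 to 0.08 (FPKM times kilobases), so this range was partly set in advance. Only 16.3% to 21.5% of low values came within 0.05 of whole multiples, so the depth is not a measured one.

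The promoters of 4 of the 10 genes are printed because the results return to these genes: Scnn1b and Scnn1g, neighbours on chromosome 7 that code for subunits of the same channel and whose ratios to Scnn1a are compared under papain, and Cftr and Aqp3 as the chloride channel and the water channel whose RefSeq start coincides with the annotated gene end. Each line gives the 250 bases before the RefSeq start site (build GRCm38.p6), read 5′ to 3′ on the gene's own strand. They lie at chr6:18170437-18170686 (plus strand) for Cftr, chr7:121864788-121865037 (plus) for Scnn1b, chr7:121734229-121734478 (plus) for Scnn1g and chr4:41098184-41098433 (minus) for Aqp3. Capitals mark a match, on either strand, to TATAAA (the TATA box) or GGGCGG (the Sp1 GC box).
Cftr: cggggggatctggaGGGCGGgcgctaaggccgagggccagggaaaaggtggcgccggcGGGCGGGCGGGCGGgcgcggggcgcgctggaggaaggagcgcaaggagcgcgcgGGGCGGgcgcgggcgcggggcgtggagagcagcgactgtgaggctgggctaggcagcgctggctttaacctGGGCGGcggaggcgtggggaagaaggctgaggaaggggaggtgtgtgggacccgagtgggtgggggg
Scnn1b: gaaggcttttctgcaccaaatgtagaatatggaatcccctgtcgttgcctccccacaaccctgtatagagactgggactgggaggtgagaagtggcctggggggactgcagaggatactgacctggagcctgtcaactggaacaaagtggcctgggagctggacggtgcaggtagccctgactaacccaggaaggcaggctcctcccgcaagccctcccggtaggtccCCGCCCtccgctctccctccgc
Scnn1g: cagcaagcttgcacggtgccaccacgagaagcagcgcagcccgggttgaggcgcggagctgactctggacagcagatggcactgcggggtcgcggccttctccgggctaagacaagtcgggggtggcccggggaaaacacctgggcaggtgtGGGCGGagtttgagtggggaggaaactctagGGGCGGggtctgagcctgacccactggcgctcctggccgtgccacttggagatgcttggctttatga
Aqp3: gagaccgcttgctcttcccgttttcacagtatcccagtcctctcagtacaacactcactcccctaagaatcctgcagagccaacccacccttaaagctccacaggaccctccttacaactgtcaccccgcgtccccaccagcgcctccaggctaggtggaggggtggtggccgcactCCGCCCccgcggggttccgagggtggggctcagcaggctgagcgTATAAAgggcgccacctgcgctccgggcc
The Scnn1b promoter holds 1 GC box, starting at position -22 from the start site, and Scnn1g holds 2, at -98 and -67, and neither holds a TATA box. Aqp3 has a TATA box at -29 and a GC box at -73, and Cftr has 6 GC boxes and no TATA box. Windows of 300 bases, reaching 50 past the start, were examined for 8 of the 10 genes. Scnn1a had no entry among the promoters, and Slc12a2 was left out, so its window was not examined for any of these patterns. Among 32851 such mouse windows, 13.6% held the TATA box letters and 35.7% those of the GC box. A TATA box was also present in the windows of Slc26a4 and Slc26a9, the pair with the lowest levels in the tissue, and a GC box in those of Ano1 and Aqp5. The GC content was 61.7% for Scnn1b, 64.7% for Scnn1g, 64.0% for Aqp3, 71.3% for Cftr, 71.7% for Ano1 and 79.7% for Aqp5, against a median of 52.7%, while Slc26a4 and Slc26a9 had 50% and 52.0%. No match was found in any of these 8 windows to TTCNNNNGAA (a STAT6 site, in 6.95% of all windows), TTCNNNGAA (a STAT site, in 8.3%) or TGACG (a CREB recognition core, in 20.8%), and TGTTCT (a glucocorticoid receptor core, in 19.0%) occurred once, in Slc26a4. The STAT and STAT6 patterns can overlap each other. A match is a run of letters, not a measured binding site.

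All 10 genes were detected in all 9 libraries, at levels that spanned from Aqp5 to Slc26a4. In control mucosa Aqp5 was the highest at 54.6 ± 7.06 FPKM (SD, n = 3), followed by Slc12a2 at 39.7 ± 2.56 and Aqp3 at 32.2 ± 1.11, and the control ranges of these 3 genes did not overlap. Scnn1a stood at 9.67 ± 1.04 FPKM and Ano1 at 7.4 ± 0.615, again without overlap. Scnn1b (2.39 ± 0.338), Cftr (2.19 ± 0.625) and Scnn1g (1.46 ± 0.0683) formed a lower tier in which Cftr overlapped both of the others, whereas every Scnn1b value was above every Scnn1g value. Slc26a9 (0.253 ± 0.0365) and Slc26a4 (0.211 ± 0.0377) were the lowest, and their ranges overlapped. ENaC message was thus uneven between subunits, with the alpha subunit above beta and gamma in every library of every group. The order at the top changed in the exosome libraries, where Aqp3 averaged 82.1 ± 25.6 FPKM and Slc12a2 58.7 ± 4.74, although the lowest Aqp3 value, 52.8 in exosome library 3, was just under the lowest Slc12a2 value of 53.2.

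**Figure D1:**
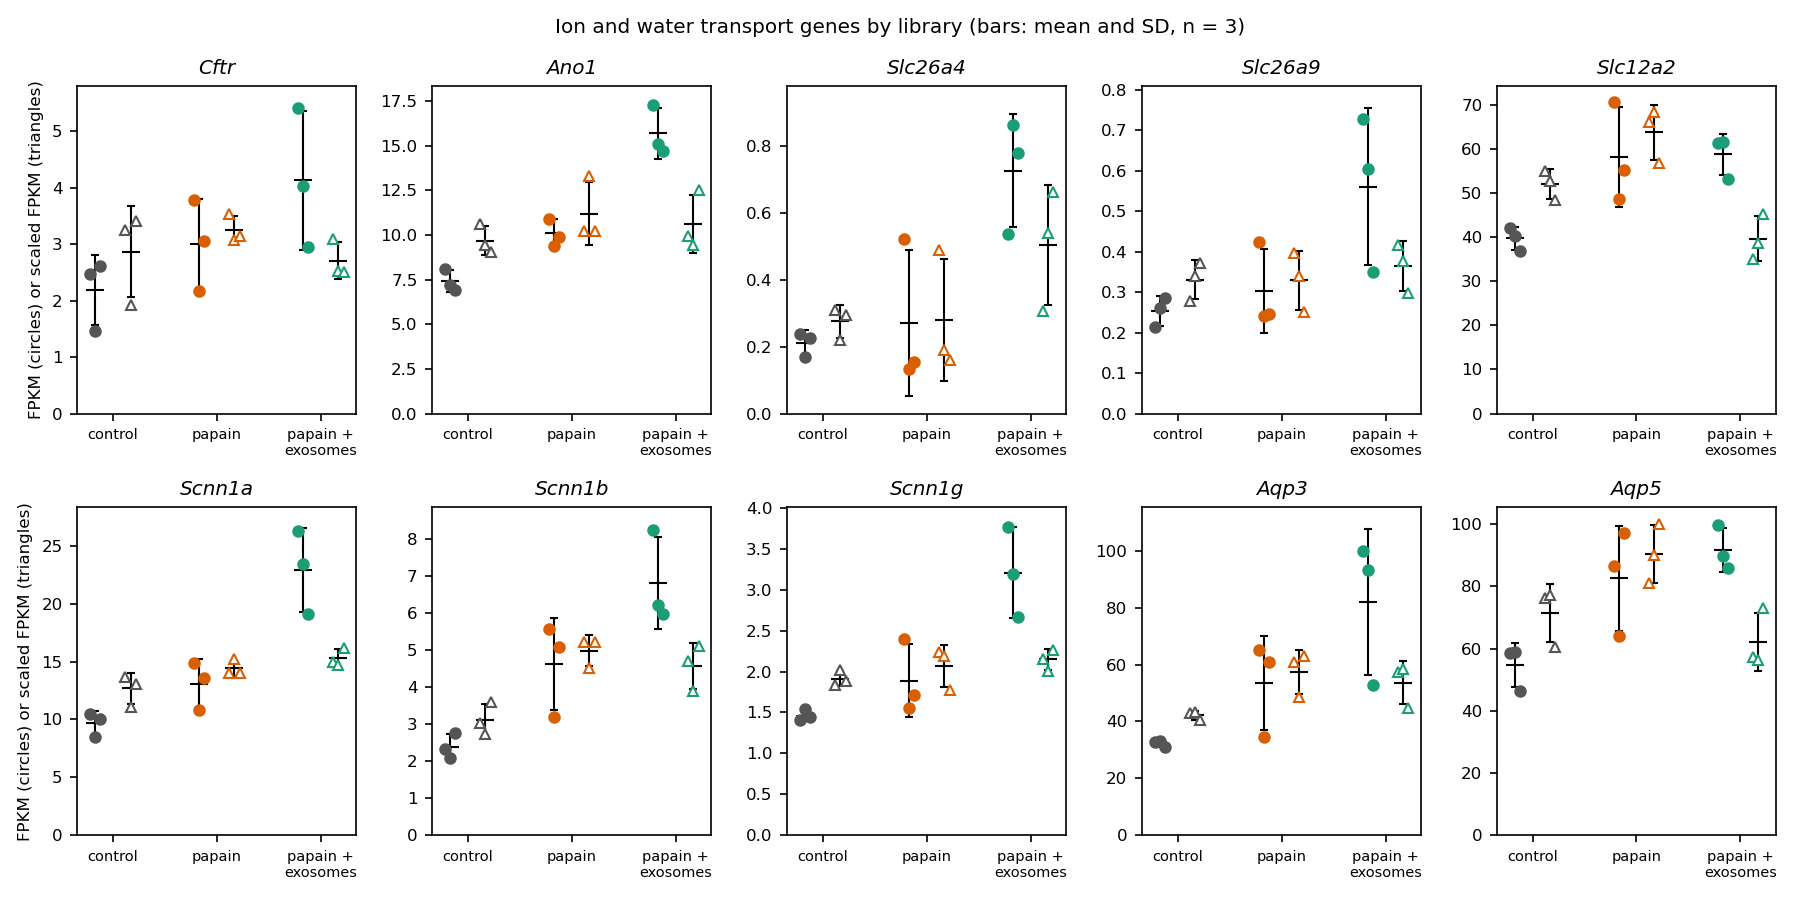
Level of each of the 10 genes in every library, as deposited (filled circles, FPKM) and scaled (open triangles, scaled FPKM), for control, papain, and papain with exosomes; bars give the mean and SD of 3 libraries and each panel has its own linear axis from 0. As deposited the exosome libraries are the highest for most genes, whereas on scaled values Slc12a2 lies at 35.1 to 45.2 with exosomes, below the papain libraries at 56.7 to 68.4 and the controls at 48.3 to 54.9.

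Papain against control asks which transport genes the allergen moved. The beta subunit of ENaC was the member with the clearest rise: Scnn1b was 1.94 times as high by mean FPKM and 1.6 times as high after scaling, and it passed the test on the scaled values only. The remaining 7 tested genes had positive changes on both scales, none past the threshold. Changes are differences in mean log2(FPKM + 1), which understate the change of low genes, from a limma fit over all genes with Benjamini-Hochberg adjustment and a threshold of 0.05, for genes of at least 1 FPKM in at least 3 libraries. Of the 10 genes, 8 passed that filter, and Slc26a4 and Slc26a9 did not.

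Scnn1b read 2.32, 2.09 and 2.75 FPKM in the control libraries and 5.58, 3.2 and 5.08 in the papain libraries. After scaling the values were 3.04, 2.73 and 3.6 against 5.22, 4.51 and 5.23. On both scales every papain library was above every control library, with papain library 2 the lowest of its group. The log2 change was 0.71 ± 0.20 (SE) as deposited, adjusted p = 0.0591, and 0.54 ± 0.11 scaled, adjusted p = 0.0147. The scaled call was lost without control library 2 (adjusted p = 0.0571) and without papain library 3 (0.0616). On the deposited scale limma called 0 of the 8 tested members higher (5 at an unadjusted p under 0.05), where 3.01% of all tested genes were called, and on the scaled values 1 of 8 was, where 5.77% were, and none was lower, where 4.15% were.

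The other ENaC subunits did not pass the test. Scnn1a, the alpha subunit that the channel needs to reach the membrane, read 10.5, 8.5 and 10 FPKM in control and 14.9, 10.8 and 13.6 with papain, and on scaled values 13.7, 11.1 and 13.1 against 14, 15.2 and 14. The groups did not overlap on either scale, but the scaled gap was small, with a log2 change of 0.18 ± 0.09 (adjusted p = 0.24, and 0.304 for the deposited change of 0.40 ± 0.19). Scnn1g, the gamma subunit, lay at 1.41 to 1.54 FPKM in control and 1.55 to 2.4 with papain, and on scaled values the groups overlapped (change 0.07 ± 0.09, adjusted p = 0.653). Because the ratio of 2 genes within a library is the same on both scales, the subunits were also compared that way. The ratio of Scnn1b to Scnn1a was 0.221, 0.245 and 0.274 in control and 0.374, 0.297 and 0.373 with papain, so that all papain libraries were above all controls (log2 difference of the means of logs 0.49). The ratio of Scnn1g to Scnn1a overlapped between all groups, at 0.134 to 0.181 in control, 0.126 to 0.16 with papain and 0.137 to 0.144 with exosomes. With 3 libraries against 3, the exact two-sided permutation p of such a ratio cannot be under 0.10, the value the beta to alpha ratio had, and over the 18 ratio tests made here (6 ratios, chosen after their values were seen, in 3 comparisons) it adjusts to 0.514.

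On the secretory side, Slc12a2 read 42.0, 40.3 and 36.9 FPKM in control and 70.6, 48.6 and 55.1 with papain, and scaled 54.9, 52.8 and 48.3 against 66.0, 68.4 and 56.7. Papain libraries were above controls on both scales, by 0.52 ± 0.19 (adjusted p = 0.149) as deposited and 0.29 ± 0.11 (0.142) scaled, neither past the threshold. The apical chloride channels differed by less than this. Ano1 ranged from 6.92 to 8.09 FPKM in control and 9.41 to 10.9 with papain, and overlapped once scaled (change 0.19 ± 0.13, adjusted p = 0.384). Cftr overlapped on both scales, with 1.47 to 2.62 FPKM in control and 2.18 to 3.78 with papain (scaled change 0.16 ± 0.15, adjusted p = 0.539), and without control library 2, its lowest, the scaled change was -0.03. The ratio of Cftr to Ano1 was 0.205 to 0.378 in control and 0.232 to 0.346 with papain, so the balance of the cAMP-gated and the calcium-gated channel did not separate the groups. Slc26a4 (pendrin), an exchanger of chloride for bicarbonate and iodide, was raised in 1 library alone, reading 0.521 FPKM in papain library 1 against 0.134 and 0.154 in the other two and 0.168 to 0.238 in control. Slc26a9, a chloride channel or exchanger of airway and stomach, was at 0.242 to 0.423 FPKM with papain and 0.213 to 0.285 in control.

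Both aquaporins were higher in every papain library than in any control library, on both scales and without passing the test. Aqp3 read 32.8, 33.0 and 31.0 FPKM in control and 65.1, 34.6 and 61.1 with papain, and scaled 42.9, 43.2 and 40.4 against 60.9, 48.7 and 62.9. The control libraries were tight and papain library 2 was close to them, and the scaled change of 0.43 ± 0.13 had an adjusted p of 0.0615 (0.168 for 0.66 ± 0.25 as deposited). Aqp5 read 58.4, 58.8 and 46.4 FPKM in control and 86.6, 64.1 and 97.1 with papain, and scaled 76.4, 77.1 and 60.6 against 81.1, 90.2 and 100. The scaled change was 0.34 ± 0.14 (adjusted p = 0.152). Without papain library 2, 4 members were called higher as deposited, namely Scnn1b, Slc12a2, Aqp3 and Aqp5, against 0 with all libraries. Groups did not overlap for 7 of the 8 tested members as deposited, where 20.7% of all genes were higher without overlap, and for 5 of 8 scaled, where 15.8% were.

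Markers of secretory cells moved in the same comparison. Among all tested genes, 5.77% were called higher and 4.15% lower on scaled values, and 3.01% higher as deposited. All 7 tested genes of a goblet cell and IL-13 response list rose on both scales, and the list's summed level was 184.9 to 196.9 in control and 429.2 to 516.0 with papain on scaled values. Clca1, 1 of the 7, read 0 to 0.0168 FPKM in control and passed the filter only through papain and exosome libraries. The count of 7 is thus partly set by the filter. The summed level of 7 markers of ionocytes, the rare cells rich in Cftr, was 84.8 to 91.7 scaled in control and 92.0 to 96.7 with papain, with 0 of 7 called by limma on either scale (1 higher as deposited and 0 scaled at an unadjusted p under 0.05), and Foxi1, their defining transcription factor, was above 0 in all libraries. Gland markers summed to 306814 to 358839 scaled in control and 174856 to 329198 with papain, with 1 of 9 higher and 1 lower, the latter being 0 without any control library, papain 1, papain 3 or exosome 2 and 2 without exosome 3. The part of these cell types in the values of the transport genes was not tested, and in RNA from whole tissue fewer cells of a type and less RNA per cell cannot be told apart. The club cell marker Scgb1a1 was listed at 0 in 6 of the 9 libraries and did not exceed 0.118 FPKM.

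Exosomes with papain against papain alone asks what the exosome therapy changed. Slc12a2 and Aqp5, the cotransporter that feeds chloride secretion and the apical water channel, fell against the scaled background, to 0.622 and 0.687 times the papain mean, while in deposited FPKM neither passed the test and both means were slightly above papain (1.01 and 1.11 times). In deposited FPKM, 5 of the 8 tested members were called higher, Scnn1a, Scnn1b, Scnn1g, Ano1 and Aqp3, where 63.0% of all tested genes were, so this share was near the background, and none was lower, where 0.73% were. Groups did not overlap for 4 of the 8, all higher, as deposited, where 57.5% of genes were, and for 2 of 8, both lower, on scaled values, where 23.8% were. On scaled values limma called 0 of 8 higher (0 at an unadjusted p under 0.05), where 13.4% of all genes were called, and 2 of 8 lower, where 16.2% were. The median change of the 8 was 0.52 as deposited and -0.10 scaled, against 0.56 and -0.01 for all genes tested. This comparison uses the same papain libraries as the one before, so the values are given side by side and no relation between the changes is computed.

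Slc12a2 read 61.2, 61.6 and 53.2 FPKM in the exosome libraries against 70.6, 48.6 and 55.1 with papain alone, groups that overlapped. After scaling the exosome libraries read 35.1, 38.6 and 45.2, below every papain library (66.0, 68.4 and 56.7) and every control library (54.9, 52.8 and 48.3). The change from papain was -0.67 ± 0.11 scaled (adjusted p = 0.0045) and 0.03 ± 0.19 as deposited (adjusted p = 0.894). The scaled call held when any 1 of the 9 libraries was left out. The direction depends on the scale, which is why the ratio to another epithelial transport gene is informative: Slc12a2 to Scnn1a was 2.33, 2.63 and 2.79 with exosomes, 4.72, 4.51 and 4.05 with papain, and 4.0, 4.74 and 3.68 in control. The exosome libraries lay below the other 6 without overlap, the log2 difference being -0.78 from papain and -0.68 from control (exact permutation p = 0.1 in each, the smallest possible, 0.514 adjusted over the 18 ratio tests). A ratio shows that the pair changed unequally, not which of them moved.

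Aqp5 showed the same split between scales with less stability. It read 99.7, 89.6 and 85.8 FPKM with exosomes, overlapping the papain range of 64.1 to 97.1, and on scaled values 57.2, 56.2 and 73.0 against 81.1, 90.2 and 100. The scaled change was -0.54 ± 0.14 (adjusted p = 0.0179) and the deposited one 0.17 ± 0.20 (adjusted p = 0.441). The scaled call was lost if papain library 3 or either of exosome libraries 1 and 2 was left out, with adjusted p of 0.065 to 0.0667. Aqp3, in contrast, read 100.2, 93.2 and 52.8 FPKM with exosomes and 57.4, 58.4 and 44.9 scaled, overlapping papain on both scales. Its change was 0.60 ± 0.25 as deposited (adjusted p = 0.0405) and -0.10 ± 0.13 scaled (0.577), and the deposited call was lost if papain library 2 or either of exosome libraries 1 and 2 was left out. The ratio of Aqp5 to Aqp3 was 0.995, 0.961 and 1.63 with exosomes and 1.33, 1.85 and 1.59 with papain, so exosome library 3 overlapped the papain libraries.

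For sodium absorption, all 3 ENaC subunits were called higher with exosomes as deposited and none was called on scaled values. Scnn1a read 26.3, 23.4 and 19.1 FPKM with exosomes, above papain at 14.9, 10.8 and 13.6, a change of 0.76 ± 0.19 (adjusted p = 0.00345), while the scaled values of 15, 14.7 and 16.2 overlapped papain (0.08 ± 0.09, adjusted p = 0.501). Scnn1b read 8.24, 6.21 and 5.99 FPKM with exosomes, a change of 0.49 ± 0.20 (adjusted p = 0.0425), and 4.72, 3.89 and 5.1 scaled, a change of -0.11 ± 0.11 (0.485). The deposited call of Scnn1b was lost without any 1 of 7 libraries, all but papain 1 and exosome 3. Scnn1g read 3.77, 3.2 and 2.67 FPKM with exosomes (0.55 ± 0.18, adjusted p = 0.0142, lost without exosome library 1) and 2.16, 2.01 and 2.27 scaled (0.04 ± 0.09, 0.758). The ratio of Scnn1b to Scnn1a was 0.314, 0.265 and 0.314 with exosomes, between control and papain and overlapping both.

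Of the apical anion genes, Ano1 read 17.3, 15.1 and 14.7 FPKM with exosomes, above papain at 9.41 to 10.9 (change 0.59 ± 0.18, adjusted p = 0.00878), and 9.94, 9.45 and 12.5 scaled, where it overlapped (-0.07 ± 0.13, adjusted p = 0.694). Cftr overlapped papain on both scales, at 5.41, 4.04 and 2.95 FPKM and 3.1, 2.53 and 2.51 scaled, and was not called (adjusted p = 0.16 and 0.337). Slc26a4, too low for the filter, read 0.538, 0.863 and 0.778 FPKM with exosomes, all above the papain and control libraries, and 0.308, 0.541 and 0.661 scaled, where it overlapped both. With no filter on low values its deposited change from papain was 0.45, adjusted p = 0.0332, and its scaled change 0.24, adjusted p = 0.259. Slc26a9 read 0.728, 0.604 and 0.35 FPKM with exosomes, overlapping papain.

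**Figure D2:**
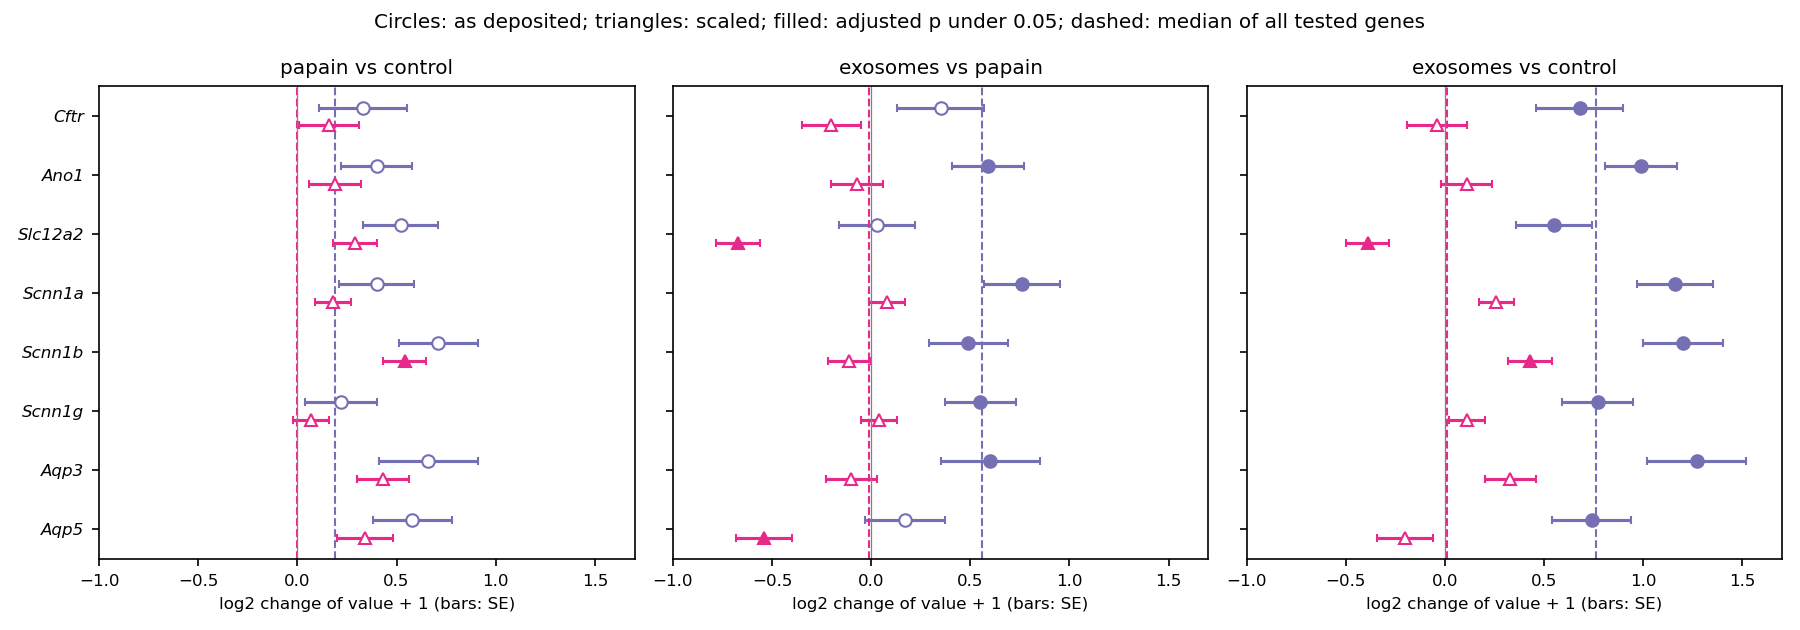
Change of the 8 tested genes in the 3 comparisons, as the difference in mean log2(value + 1) with its standard error, as deposited (circles) and scaled (triangles); filled symbols have an adjusted p under 0.05 and dashed lines mark the median change of all tested genes on each scale. Slc12a2 (0.03 as deposited, -0.67 scaled) and Aqp5 (0.17 and -0.54) lie farthest below the median of all genes between exosomes and papain.

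Markers also moved between these groups. Among all tested genes, 13.4% were called higher and 16.2% lower than papain on scaled values, and 63.0% and 0.73% as deposited. Against control the scaled shares were 12.3% and 15.6%. On scaled values the goblet cell and IL-13 response list summed to 205.3 to 263.0 with exosomes and 429.2 to 516.0 with papain, with 5 of 7 tested genes lower (3 without papain 2, exosome 1 or exosome 2), although as deposited 2 were lower (1 in 7 of the 9 fits that left out a library) and 2 higher (0 without papain 2, and 1 without papain 3, exosome 1 or exosome 2). Agr2 made up most of each sum, at 232.9 to 410.5 FPKM with papain and 209.9 to 241.2 with exosomes. Muc5ac, a mucin of the list, read 16.5 to 33.7 FPKM with papain and 32.2 to 46.2 with exosomes. Against control, 5 of the 7 list genes were still higher scaled with exosomes (4 to 5 with each library left out), where 12.3% of all genes were. Gland markers summed to 57828 to 157638 scaled with exosomes, under all papain and control libraries, with 1 of 9 called lower against papain (0 in 7 of the 9 fits that left out a library, all but those without papain 1 or exosome 3, and 3 without exosome 3) and 6 of 9 against control, the latter being 2 without any control library, exosome 1 or exosome 2. Against control 1 of 9 was also called higher. The Obp and Bpifb9 genes made up nearly all of the sum. Ltf went the other way as deposited, at 177.7 to 218.8 FPKM in control, 380.4 to 504.3 with papain and 656.1 to 1145.5 with exosomes. Markers of olfactory sensory neurons, which share the nasal lining, summed to 525.2 to 940.3 scaled with exosomes, 255.8 to 464.9 with papain and 600.2 to 739.9 in control. With exosomes 7 of 8 were higher than with papain. Against control, 4 of 8 were lower with papain, where 4.15% of all genes were. Limma called 0 of 8 with exosomes against control (1 lower at an unadjusted p under 0.05). The ionocyte list lay at 79.9 to 93.2 scaled with exosomes and 92.0 to 96.7 with papain, with 1 of 7 lower (Atp6v1c2, a proton pump subunit), a call lost without papain 2, papain 3, exosome 1 or exosome 2. Their part in the lower scaled Slc12a2 and Aqp5 was not tested.

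Exosomes with papain against control closes the set, sharing libraries with both comparisons above. As deposited all 8 tested members were called higher, by 0.55 for Slc12a2 to 1.27 for Aqp3, where 84.3% of all tested genes were, and in all 8 every exosome library was above every control library, as for 87.5% of genes. On scaled values 1 of 8 was higher, Scnn1b, where 12.3% of genes were, and 1 was lower, Slc12a2, where 15.6% were. Without overlap 3 of 8 were higher (Scnn1a, Scnn1b and Aqp3), where 23.0% were, and Slc12a2 was lower, where 23.9% were. Scnn1b stayed above control in every exosome library (3.89 to 5.1 scaled against 2.73 to 3.6), a change of 0.43 ± 0.11, adjusted p = 0.0189. That call was lost if control library 1 or 2 or exosome library 1 was left out (adjusted p = 0.0554 to 0.0716). Slc12a2 changed by -0.39 ± 0.11 scaled (adjusted p = 0.0311) and by 0.55 ± 0.19 as deposited (0.0115). The scaled call was lost without any control library and without exosome library 1 or 2 (0.0523 to 0.111), and the deposited one without control library 3 (0.0578) or exosome library 2 (0.051). With the replicate number as a block the scaled Slc12a2 call was also lost (adjusted p = 0.0625). Scnn1a and Aqp3 were higher than control in every exosome library on both scales, with scaled changes of 0.26 ± 0.09 (adjusted p = 0.052) and 0.33 ± 0.13 (0.0782). Cftr was called as deposited (0.68 ± 0.22, adjusted p = 0.00859, lost without control library 2 or exosome library 1) and read -0.04 ± 0.15 scaled.

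**Figure D3:**
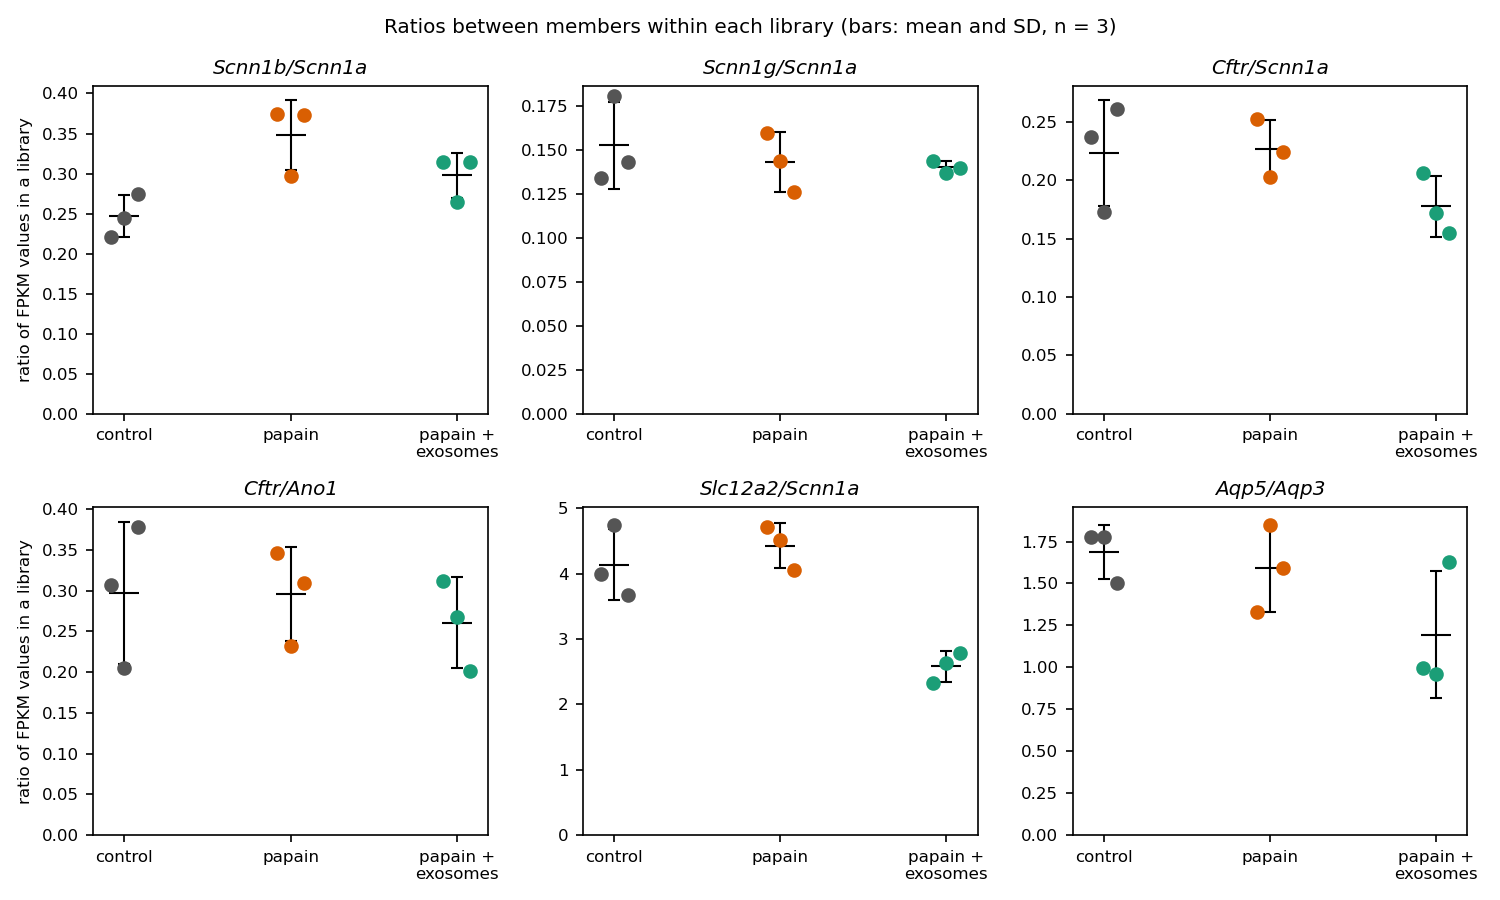
Ratios between pairs of these genes within each library, which are free of the scaling, for control, papain, and papain with exosomes; bars give the mean and SD of 3 libraries and axes start at 0. The ratio of Slc12a2 to Scnn1a is 2.33 to 2.79 in the exosome libraries and 3.68 to 4.74 in the other 6, and Scnn1b to Scnn1a is higher in all papain than in all control libraries.

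Other genes of the same physiology were read from 7 lists. Among genes that supply the driving force on the basolateral side, Kcne3, the potassium channel subunit that pairs with Kcnq1 to sustain chloride secretion, went from 2.89 ± 1.17 FPKM in control to 14.6 ± 2.03 with papain, a change of 2.04 ± 0.22 as deposited (adjusted p = 5.5e-06) and 1.89 ± 0.20 scaled (0.000658). Its values were 3.87, 1.6 and 3.21 in control, 16.0, 12.3 and 15.5 with papain, and 13.7, 13.2 and 10.6 with exosomes, so papain and exosome libraries were all above control. Against papain the exosome libraries were lower on scaled values (-0.86 ± 0.20, adjusted p = 0.0136) and overlapped as deposited (-0.21 ± 0.22, adjusted p = 0.397). These calls of Kcne3 held when any 1 library was left out. Of the list's 11 tested genes, 1 was higher as deposited with papain (3 without papain 2 and 2 without exosome 3), where 3.01% of all genes were. On scaled values 2 were higher, where 5.77% were, and 1 was lower, where 4.15% were (Kcnq1, a call lost in 6 of the 9 fits that left out a library, and Kcnma1 being the others). Exosomes against papain gave 8 higher as deposited, where 63.0% of all genes were, and on scaled values 3 higher, where 13.4% were, and 2 lower, where 16.2% were. The scaled rises included Slc12a7 (KCC4, a potassium and chloride cotransporter), at 12.6 ± 0.474 against 8.4 ± 0.364, and Kcnma1 (a large-conductance potassium channel), at 3.7 ± 0.266 against 2.07 ± 0.214. Slc12a2 and Slc12a7, which move chloride in and out of the cell on the same side, thus changed in opposite directions on the scaled values (-0.67 and 0.53), while as deposited the changes were 0.03 and 1.2.

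Among regulators of ENaC, a membrane protease and its inhibitor rose with papain on both scales. St14 (matriptase), a protease upstream of ENaC cleavage, read 6.77, 6.23 and 5.33 FPKM in control and 18.7, 11.1 and 16.7 with papain, a change of 1.19 ± 0.22 (adjusted p = 0.00239) and of 0.99 ± 0.10 scaled (0.000565). Its inhibitor Spint2 went from 54.2 ± 3.7 to 94.2 ± 17.3 FPKM, a change of 0.77 ± 0.20 (adjusted p = 0.0333) and of 0.53 ± 0.08 scaled (0.00431). The St14 calls held without any 1 library, as did the scaled call of Spint2, whereas the deposited call of Spint2 was lost without any control library, papain 1 or papain 3. The mineralocorticoid receptor Nr3c2, which drives ENaC in response to aldosterone, was lower with papain on scaled values (-0.41 ± 0.08, adjusted p = 0.0135, lost without control 2 or papain 3) and not called as deposited. Of the 11 tested regulators, 2 were higher with papain as deposited, where 3.01% of all genes were. On scaled values 2 were higher, where 5.77% were, and 1 was lower, where 4.15% were. With exosomes against papain 8 were higher as deposited (4 without exosome 1 and 5 without exosome 2), where 63.0% of all genes were, and on scaled values 1 was, where 13.4% were. That gene was Nr3c2, a call lost without papain 2, papain 3, exosome 1 or exosome 2. The kinase Sgk1 and the ubiquitin ligase Nedd4l, which act on ENaC in opposition, were not called on scaled values in any comparison.

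Receptors for signals that regulate secretion were called higher under papain more than the genes of the other 6 lists on scaled values, a comparison of counts with no test. On scaled values 5 of 8 tested receptors were higher with papain, where 5.77% of all genes were, and 2 of 8 as deposited, where 3.01% were. Of those 5, P2ry2 (0.552 to 0.726 FPKM in control) and Adora1 (0.4 to 0.483) passed the filter only through papain and exosome libraries. Their place among the 8 thus came from the groups where they were high, and the count is partly set by the filter. The scaled call of Adora1 (adjusted p = 0.0473) was also lost in 7 of the 9 fits that left out a library. Adora2b, the adenosine receptor that activates Cftr through cAMP, went from 2.09 ± 0.486 to 6.89 ± 0.934 FPKM (change 1.36 ± 0.20, adjusted p = 0.000288, and 1.21 ± 0.11 scaled, 0.000307). P2ry6, a receptor for UDP, went from 1.21 ± 0.151 to 3.31 ± 0.884 FPKM (0.94 ± 0.23, adjusted p = 0.0205, and 0.83 ± 0.13 scaled, 0.00485), the deposited call being lost without any control library or papain 3. F2rl1, the protease-activated receptor PAR2, had a scaled change of 0.72 ± 0.14 (adjusted p = 0.0137), lost without control 2, control 3 or papain 3. Without any 1 of those 3 libraries, 3 receptors were called scaled in place of 5. The deposited count was 5 with papain library 2 left out, 6 with exosome library 3 left out, and 1 without any control library or papain 3. Against papain, exosome libraries had 3 of 8 receptors lower on scaled values, where 16.2% of all genes were, and 1 without exosome library 1. Adora2b was among the 3 (-0.71 ± 0.11, adjusted p = 0.00401, held without any 1 library). As deposited Adora2b overlapped between those groups (-0.11 ± 0.20).

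Of 10 other tested anion channels and exchangers, 1 was higher with papain as deposited (3 without papain 2 and 2 without exosome 3), where 3.01% of all genes were, and 2 scaled, Clca1 and Slc4a7, where 5.77% were. Clca1, a secreted regulator of calcium-activated chloride current made by goblet cells and also a member of the goblet marker list, was listed at 0 in 2 control libraries and 0.0168 in the third, and read 8.22, 4.89 and 2.98 FPKM with papain and 1.94, 1.5 and 1.26 with exosomes. Clca1 passed the filter only through papain and exosome libraries, so its place in these counts is partly set by the filter. It was lower with exosomes than with papain on both scales (-1.23 ± 0.23, adjusted p = 0.000687, and -1.68 ± 0.23 scaled, 0.00294), without overlap. Slc4a7, a sodium bicarbonate cotransporter, had a scaled change of 0.44 ± 0.08 with papain (adjusted p = 0.0112, lost without papain 3) and 0.64 ± 0.21 as deposited (0.105). In the WNK kinase cascade, which controls Slc12a2 through phosphorylation, limma called 0 of 6 tested genes with papain on either scale (1 as deposited and 0 scaled at an unadjusted p under 0.05). With exosomes against papain 3 were higher as deposited (1 without exosome 1 or exosome 2), where 63.0% of all genes were. One of them, Wnk4, read 0.893 to 0.938 FPKM with papain and 1.38 to 1.89 with exosomes. As deposited it passed the filter only through exosome libraries, where it was high, so this count is partly set by the filter. On scaled values Wnk2 was higher (0.65 ± 0.16, adjusted p = 0.015, lost without papain 3, exosome 1 or exosome 2), and Stk39 (SPAK, the kinase that phosphorylates Slc12a2) and Cul3 were lower. The Cul3 call (adjusted p = 0.0249) was lost without papain 1, papain 3, exosome 1 or exosome 2 (0.0592 to 0.0863). Stk39, named here after its values were seen, changed by -0.33 ± 0.10 (adjusted p = 0.0316, lost without papain 1, papain 2, exosome 1 or exosome 2) and by 0.32 ± 0.19 as deposited (0.133).

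The other aquaporins had 4 tested genes as deposited and 3 scaled. Aqp4, a basolateral water channel of respiratory and olfactory epithelium, went from 32.7 ± 0.202 FPKM in control to 46.6 ± 7.16 with papain and 85.0 ± 13.2 with exosomes, and against control the exosome libraries were higher on both scales (1.34 ± 0.19, adjusted p = 4.07e-05, and 0.40 ± 0.08 scaled, 0.00639). Aqp4 therefore stood near Aqp3 and Aqp5 in level and, unlike Aqp5, had a scaled mean above papain with exosomes (56.8 ± 2.76 against 51.2 ± 2.89, adjusted p = 0.167). On scaled values 1 of the 3 tested was higher with papain, where 5.77% of all genes were, and 1 lower, where 4.15% were. As deposited limma called 0 of the 4 (2 higher at an unadjusted p under 0.05, with 2 called without papain 2 and 1 without exosome 3), where 3.01% of all genes were called higher. Aqp11 was the higher one (0.48 ± 0.10, adjusted p = 0.0179, lost without control 1 or control 3). Aqp1, the water channel of vessels, was lower with papain on scaled values (-0.43 ± 0.11, adjusted p = 0.0344), a call lost in 6 of the 9 fits that left out a library. Among 7 tested genes for acid and bicarbonate handling, limma called 0 with papain on either scale (0 as deposited and 1 scaled at an unadjusted p under 0.05). With exosomes against papain 5 of these 7 were higher as deposited (3 without exosome 1 or exosome 2), where 63.0% of all genes were. One of the 5, Slc9a3 (0.598 to 0.9 FPKM in control), passed the filter only through papain and exosome libraries. On scaled values 1 was, where 13.4% were, namely Slc9a2, a sodium and proton exchanger (0.39 ± 0.11, adjusted p = 0.0252, lost without papain 2, exosome 1 or exosome 2).

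**Figure D4:**
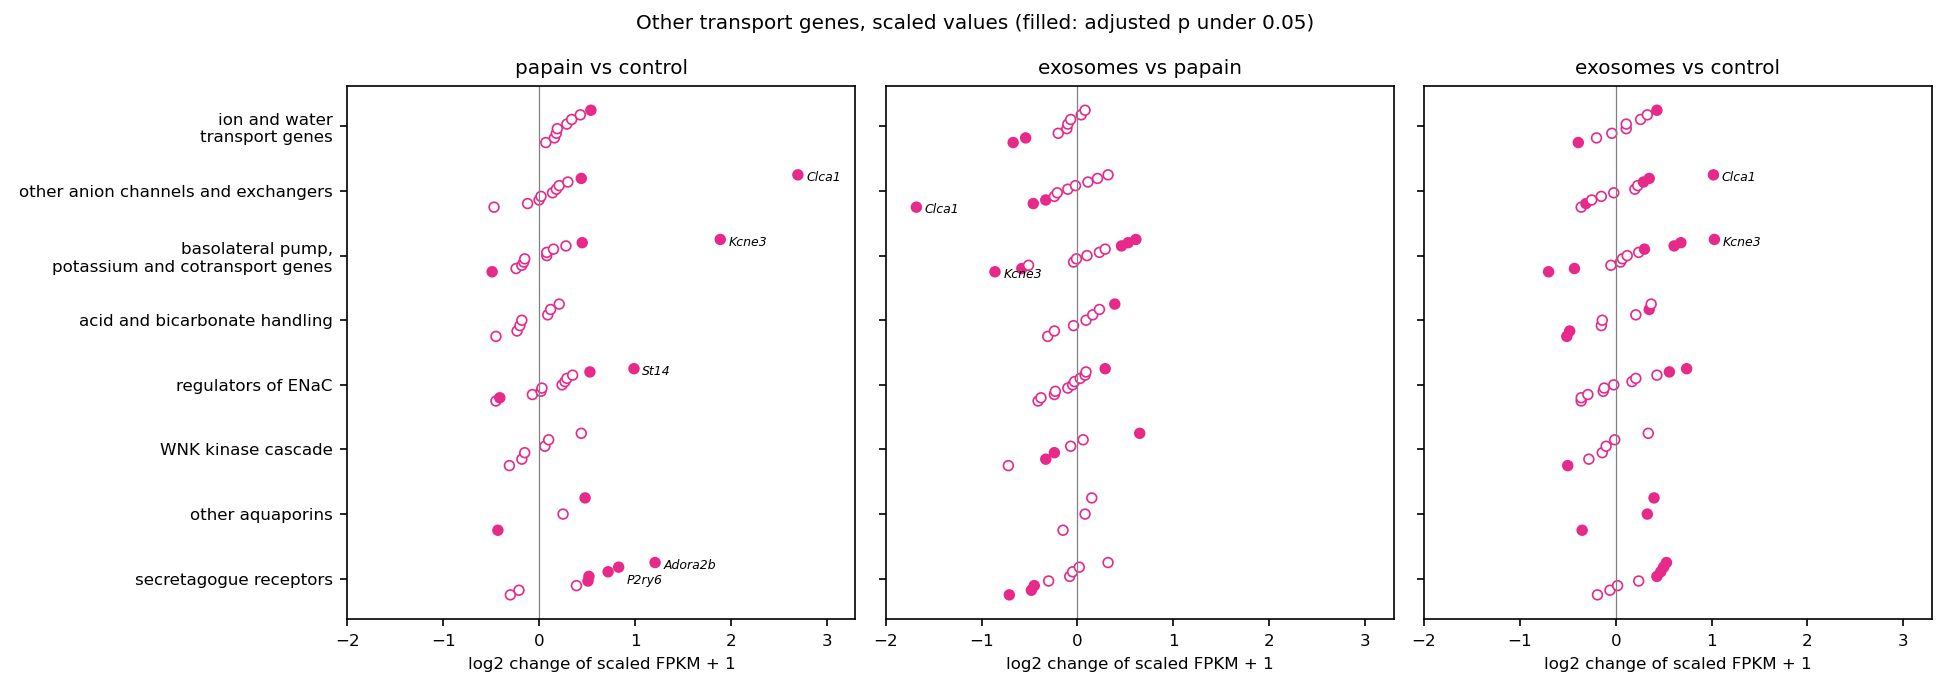
Scaled change, as the difference in mean log2(scaled FPKM + 1), of each tested gene in the 10-gene set and in 7 lists of related transport genes, 1 point a gene, in the 3 comparisons; filled points have an adjusted p under 0.05. Clca1, Kcne3, St14, Adora2b and P2ry6 are labelled where their change is large, and Clca1 and Kcne3 lie to the right with papain against control and to the left with exosomes against papain; as deposited the Kcne3 change from papain is -0.21.

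Likeness across the 9 libraries was computed for the 8 tested genes. On scaled log2 values Slc12a2 and Aqp5 had a Pearson r of 0.838 and Scnn1a and Scnn1b one of 0.735, while Scnn1b and Slc12a2 had 0.062 and Cftr and Ano1 0.046. Among all tested genes, those most like Slc12a2 were Hspa9 (r = 0.996), Pdcd10 (0.985) and Yes1 (0.982), and those most like Aqp5 were Pigw (0.956), Mgat2 (0.953) and Sgpp1 (0.938). The nearest to Scnn1b were Sowahb (0.985), Prkab1 (0.974) and Lfng (0.968), and to Scnn1a Kcnk12 (0.976), Trim34a (0.971) and Krt19 (0.969). Aqp3 was nearest to Rgs12 (0.98), Ano1 to Cracr2b (0.961), Scnn1g to Gng4 (0.964) and Cftr to Apbb2 (0.899). These are descriptions over 9 libraries that share their groups and scaling factors, picked as the highest among all tested genes.

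By position (GENCODE M21, GRCm38), all 10 are protein-coding genes. Slc12a2 lies at chr18:57878678-57946821 on the plus strand, Aqp5 at chr15:99590782-99594829 (plus), Aqp3 at chr4:41092722-41098183 (minus) and Scnn1a at chr6:125320659-125344943 (plus). Scnn1g at chr7:121734479-121768475 and Scnn1b at chr7:121865038-121918514 lie on the same strand of chromosome 7, which also holds Ano1 at chr7:144588549-144751974 (minus). Cftr is at chr6:18170687-18322768 (plus), Slc26a4 at chr12:31519827-31559969 (minus) and Slc26a9 at chr1:131744022-131771504 (plus). Values are per gene, so isoforms are not separated, and reads from overlapping genes could not be told apart without the strand setting, which the sources used here do not give.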

How the data were processed

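RNA of mouse nasal mucosa was sequenced in 9 libraries, grouped by their titles. The authors deposited FPKM per gene. Per the submitters' processing notes, fastp 0.19.4, HISAT2, StringTie and mm10 were used; the sources used here give no annotation or strand setting. Whole reads could not be recovered (only 16.3% to 21.5% of low values came within 0.05 of whole multiples), so no count test was run. Values as deposited, and after median-of-ratios scaling, were tested as log2(FPKM + 1) in limma 3.58.1 (R 4.3.3) over all 9 libraries at once, with a mean-variance trend, at least 1 FPKM in at least 3 libraries (12738 genes as deposited, 12507 scaled), Benjamini-Hochberg adjustment and a threshold of 0.05, after a check on simulated data. Python 3.11.15 was used for ratios and exact permutation tests. Symbols were found for 21817 identifiers. The members and lists were chosen with earlier results of these data known. Named were all members, up to 3 genes of smallest deposited p per pathway list and comparison (the other list genes were named after their values were seen), and the 3 genes of highest r per member. Alternatives covered pseudocount, filter, normalization, model and each library left out.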

Additional observations from a re-analysis of the deposited data

How the results depend on the processing

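These counts of called members changed with the scale or another setting. As deposited, papain against control called 0 members higher, and 1 with a pseudocount of 0.1, scaling or quantile normalization, 2 with those 2 groups alone, 7 with array weights and 0 to 4 with each library left out, the 4 being without papain library 2. Exosomes against papain called 5 higher, and 0 after scaling, quantile normalization or a required log2 change of 1, and 2 to 6 with each library left out (2 without exosome library 1), while 0 lower became 2 after scaling and 1 with quantile normalization. Exosomes against control called 8 higher, and 1 after scaling and 3 with quantile normalization or a required log2 change of 1, and 0 lower became 1 after scaling.

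On scaled values papain against control called 1 higher, and 0 as deposited, as TPM or with a required change of 1, 3 with array weights, and 0 to 2 with each library left out (0 without control 2 or papain 3, 2 without papain 2 or exosome 3). Exosomes against papain called 0 higher (7 as TPM, 5 as deposited) and 2 lower (1 with no filter or quantile normalization, 0 as TPM, as deposited or with a required change of 1, and 1 to 2 with each library left out). Exosomes against control called 1 higher (0 with no filter or a required change of 1, 2 with a filter at 5 FPKM, 3 with quantile normalization or array weights, 9 as TPM, 8 as deposited, 0 to 2 with each library left out) and 1 lower (0 with no filter, quantile normalization, TPM, as deposited, the replicate block or a required change of 1, and 0 to 1 with each library left out). TPM is again a share of all transcripts, so it undoes the scaling. The 7 and the 9 called higher as TPM include Slc26a4, which did not pass the filter as deposited or scaled. As TPM it passed only through the exosome libraries, where it was high, so these counts are not of the same genes. The other causes were not tested.

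These changes of direction were found, as log2 changes. For exosomes against papain the deposited, scaled and quantile values were 0.35, -0.20 and -0.23 for Cftr, 0.49, -0.11 and -0.13 for Scnn1b, 0.59, -0.072 and -0.031 for Ano1, 0.028, -0.67 and -0.46 for Slc12a2, and 0.17, -0.54 and -0.26 for Aqp5 (-0.071 with array weights), and for Aqp3 0.60 and -0.10 (scaled then quantile 0.15). TPM gave 0.70 for Cftr, 0.86 for Scnn1b, 0.97 for Ano1, 0.41 for Slc12a2, 0.98 for Aqp3 and 0.55 for Aqp5. For exosomes against control the 3 values were 0.68, -0.039 and -0.072 for Cftr, 0.55, -0.39 and -0.24 for Slc12a2, and 0.74, -0.20 and -0.024 for Aqp5, with TPM at 1.14, 1.02 and 1.22. With each library left out, exosomes against papain ran from -0.09 to 0.17 for Slc12a2 and from -0.003 to 0.29 for Aqp5 as deposited, and scaled from -0.032 to 0.08 for Scnn1g, -0.18 to 0.046 for Ano1 and -0.21 to 0.017 for Aqp3. Scaled Cftr ran from -0.031 to 0.27 for papain against control and from -0.23 to 0.071 for exosomes against control.

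Same-numbered libraries had correlations of their deviations from -0.312 to 0.141 as deposited and from -0.338 to 0.144 scaled. Differently numbered ones had -0.408 to 0.402 and -0.423 to 0.413. These values gave no sign that the numbers pair the libraries, and so few pairs cannot exclude it. A fit with the replicate number as a block changed 1 member call, Slc12a2 in exosomes against control on scaled values (adjusted p = 0.0625). With 3 libraries a group and FPKM without counts, small differences in Cftr, Slc26a4 and Slc26a9 are not resolved, and no interval for counting error can be given.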

Other observations

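Further marker lists were read on scaled values beside the transport genes, as sums of their levels per library. Among all tested genes, 5.77% were called higher and 4.15% lower with papain against control. With exosomes the shares were 13.4% and 16.2% against papain, and 12.3% and 15.6% against control. Leukocyte markers summed to 44.4 to 58.4 in control, 72.1 to 115.9 with papain and 113.3 to 177.9 with exosomes, and of 4 tested genes 1 was higher with papain against control (0 without any control library, papain 2 or papain 3, and 2 without papain 1) and 2 with exosomes against control (1 without any control library, exosome 1 or exosome 2). Most of each sum was the single gene Cd74, which as deposited read 26.4 to 38.6 FPKM in control, 65.7 to 93.0 with papain and 120.2 to 287.2 with exosomes. Basal cell markers, which include Krt5 and Trp63 of the cells where Aqp3 is known to reside, summed to 45.7 to 78.1 in control, 80.1 to 120.8 with papain and 66.1 to 90.3 with exosomes, with 1 of 4 higher under papain (0 without control 2 or papain 3) and 2 of 4 lower with exosomes against papain. Fibroblast markers summed to 491.8 to 687.7, 407.3 to 581.5 and 274.3 to 460.8 in the same order, with 3 of 5 lower with exosomes against papain (0 without papain 2 or exosome 2, and 1 without papain 1, papain 3 or exosome 1). Ciliated cell markers overlapped between all groups (201.7 to 258.5, 211.8 to 349.8 and 220.9 to 370.0), and limma called 0 of 6 with papain or with exosomes against papain, 0 in each at an unadjusted p under 0.05. Sustentacular cell markers summed to 2604.9 to 2913.1 in control, 2588.3 to 3151.9 with papain and 2133.5 to 2438.2 with exosomes, and club and secretory markers to 3193.0 to 5124.2, 4223.3 to 5143.8 and 3559.4 to 3893.1. Most of each sum was 1 gene, Cyp2a5 in the first list and Bpifa1 in the second. Of 6 sustentacular markers, limma called 2 higher with papain against control, 0 with exosomes against papain, and 1 higher with exosomes against control, with 0 lower. Of 4 tested club and secretory markers, 2 were higher and 1 lower with papain against control. With exosomes 1 of these 4 was higher against papain and 2 against control, with 0 lower. Endothelial (3.84 to 5.99) and skeletal muscle markers (0.87 to 18.4) were low in all libraries. Red blood cell markers ranged from 241.2 to 447.8 with overlap between all groups. The part of these cell types in the transport genes' values was not tested.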
